A study of Mus musculus with 2 samples.

Results

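The 158 genes described here were the protein-coding genes named Zfp and a number, with no letter after it, on chromosomes 7, 13 and 17 of the mouse assembly mm9, and are called members in what follows. They were 158 of 22367 protein-coding gene records in the GENCODE annotation of that assembly, with 86 on chromosome 7, 33 on chromosome 13 and 39 on chromosome 17. Zfp708 and Zfp738 each had 2 records, so the 158 records carried 156 symbols. Of these genes 2, Zfp36 and Zfp850, held no C2H2 finger in their annotated coding sequence. ATAC-seq had been performed once on each of 2 ileum enteroid cultures, which are three-dimensional cultures grown from intestinal crypts. The control culture (labelled WT, from Taf4 lox/lox mice, in which the gene is floxed and Cre is lacking) and the Taf4-inactivated culture (labelled KO, from Taf4 lox/lox::VilCreERT2 mice, in which the villin promoter drives a tamoxifen-inducible Cre in epithelial cells) came from C57Bl6/129sv mice 4 months of age. Both had received 1 µM 4-hydroxytamoxifen for 3 days, so the drug was common to both groups. Taf4 is a subunit of TFIID, the general factor that binds core promoters of genes read by RNA polymerase II. The question was which of these genes had accessible chromatin at their start sites and within their bodies in each culture. With 1 library per genotype, differences have no replicate check and no p-value is given. The intervals given for shares are exact 95% Clopper-Pearson intervals and cover counting error only.

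C2H2 zinc finger proteins bind DNA through arrays of short finger units, each held together by a zinc ion. Many of them carry a KRAB box, a domain that recruits the corepressor Trim28 and, through it, enzymes that lay down repressive histone and DNA methylation, above all on transposable elements. Their genes multiplied by tandem duplication, and stand in clusters of near copies on a few chromosomes, of which mouse chromosomes 7, 13 and 17 hold several. The fingers of 1 such protein are usually all encoded in the last, long coding exon, and in several cell types that exon is known to carry heterochromatin marks while the start site is accessible.

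The control list held 90445 peaks over 66.0 Mb and the Taf4-inactivated list 71282 peaks over 47.7 Mb. The peak lists hold no read totals. A depth estimated from the background level that gives both the fold and the p of a peak was 60.5% of the control depth for the Taf4-inactivated library. Of 9 genes of the intestinal epithelium, 8 carried start site peaks in both lists, and Krt20 had one in the Taf4-inactivated list alone. Of 8 genes of blood, endothelial and mesenchymal cells, Ptprc, Cd3e and Cdh5 had none in either list, Pecam1 had one in control alone, and Col1a1, Col1a2, Pdgfra and Des had one in both. The start of Taf4a, the targeted gene, carried a peak in both lists, which does not show whether the floxed part was deleted and so does not check the labels.

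A start site peak was a peak within 1000 bp of any annotated start of a gene. Most zinc finger genes had one in both cultures. In control 125 of 158 (79.1%, CI 71.9 to 85.2) had a start site peak, beside 68.4% of all protein-coding genes, and in the Taf4-inactivated list 131 (82.9%, CI 76.1 to 88.4), beside 65.6%. Both lists held a peak for 119 members (75.3%), where the share over all protein-coding genes was 62.7%. The control list alone held one for 6 members (3.80%, against 5.70% of all protein-coding genes) and the Taf4-inactivated list alone for 12 (7.59%, against 2.90%). Neither list held one for 21 members (13.3%), against 28.7%. Over all genes, control-only start sites thus outnumbered those of the Taf4-inactivated list by 1276 to 648, while among the members the order was the other way round.

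The 186 numbered Zfp genes of the other chromosomes had peaks in both lists at the same share, 140 of 186 (75.3%), with 5 in control alone (2.69%) and 7 in the Taf4-inactivated list alone (3.76%). The 3871 other coding genes of chromosomes 7, 13 and 17 lay lower, with 55.8% in both lists, 6.41% in control alone and 3.33% in the Taf4-inactivated list alone. The 12 members of the Taf4-inactivated list alone were 4 on each chromosome. These were 4.65% of the members of chromosome 7, 12.1% of chromosome 13 and 10.3% of chromosome 17. The 6 of control alone were 4 on chromosome 7 and 1 on each of the others, so on chromosome 7 both counts were 4. With −log10 q required to reach 5, 0 members were left in control alone and 33 in the Taf4-inactivated list alone. That setting moved all protein-coding genes the same way, to 1.41% and 12.4%. With the 40000 peaks of highest −log10 p of each list, 5 members were in control alone and 18 in the Taf4-inactivated list alone, while all coding genes stood at 5.50% and 4.44%.

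**Figure D1:**
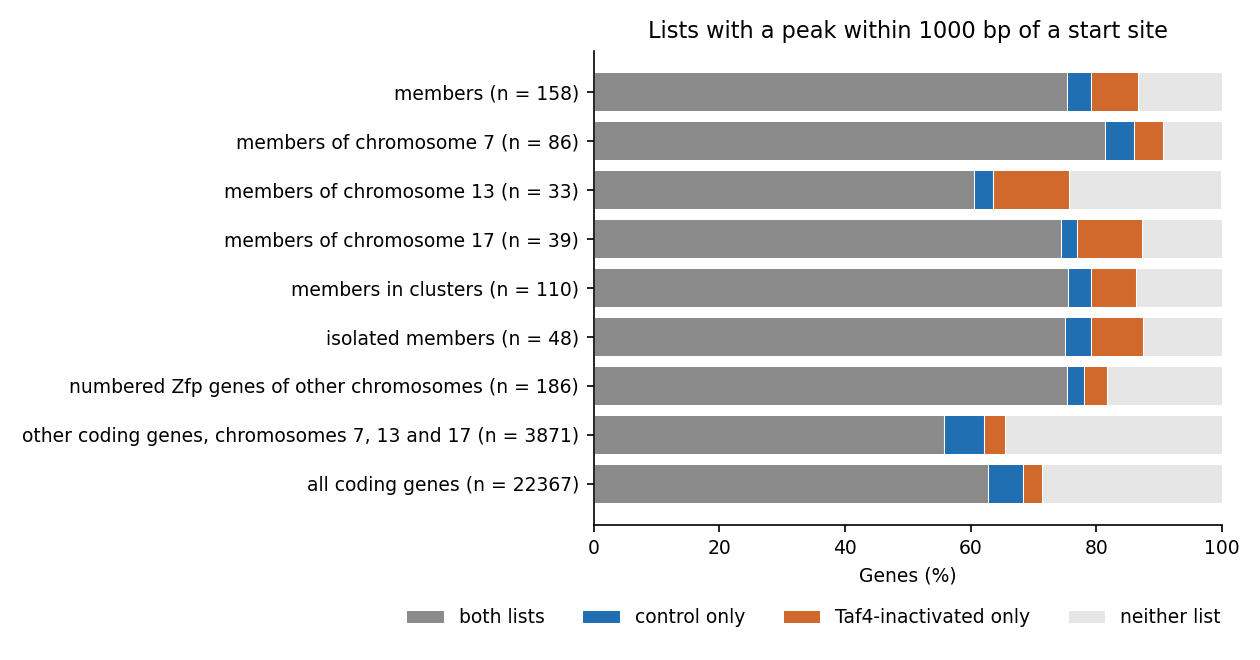
Share of genes (x axis, percent) with a peak within 1000 bp of a start site in both lists, in control alone, in the Taf4-inactivated list alone or in neither, for the 158 zinc finger genes (members), their subsets, and 3 wider sets of genes with n beside each name. The bar of the members holds 75.3% in both lists, above the 62.7% of all coding genes, and its Taf4-inactivated segment (7.59%) is wider than its control segment (3.80%), the reverse of the bar of all coding genes.

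Among the 119 members with a peak in both lists were the strongest start sites of the family. Fold is how far a peak rises above the background of its own library, and since libraries differ in scale, each peak is also given its percentile by fold among all peaks of its list. Zfp51, a KRAB gene of the largest chromosome 17 cluster, had a fold of 3.66 in the control list (percentile 99.4) and 5.18 in the Taf4-inactivated one (percentile 99.3). Zfp143, a transcription activator that binds many promoters, had a fold of 3.69 in the control list (99.4) and 4.65 in the Taf4-inactivated one (97.9). Zfp619, with 33 fingers the longest array of the family, stood at percentiles 98.5 and 98.8, Zfp54 at 97.4 and 98.9, and Zfp318, a regulator of IgD splicing in B cells, at 99.4 and 96.5. These 5 genes lay in the top 5% of either list, and their peaks covered the 5′-most start in both.

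The promoters of the strongest pair are shown as the letters under starts with strong peaks in both cultures. Each runs 300 bp, from 250 before to 50 after the 5′-most start, 5′ to 3′ on the gene's strand, in mm9, and capitals mark matches to any of 8 motifs searched on both strands. Zfp51 lies at chr17:21587066-21587365 on the plus strand and Zfp143 at chr7:117204966-117205265 on the plus strand, and all 300 bp of both windows were inside the peaks of both lists.
Zfp51: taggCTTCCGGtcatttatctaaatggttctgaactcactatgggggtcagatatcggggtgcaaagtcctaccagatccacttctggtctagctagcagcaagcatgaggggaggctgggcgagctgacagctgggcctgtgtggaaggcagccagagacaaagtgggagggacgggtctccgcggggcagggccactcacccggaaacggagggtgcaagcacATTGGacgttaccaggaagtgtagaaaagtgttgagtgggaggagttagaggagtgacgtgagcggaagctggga
Zfp143: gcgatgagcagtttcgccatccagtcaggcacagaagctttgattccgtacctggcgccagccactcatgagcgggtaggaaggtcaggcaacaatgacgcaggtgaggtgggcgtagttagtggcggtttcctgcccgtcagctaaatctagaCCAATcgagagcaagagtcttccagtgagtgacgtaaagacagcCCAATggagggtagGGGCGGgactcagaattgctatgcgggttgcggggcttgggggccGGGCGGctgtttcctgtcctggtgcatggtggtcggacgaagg
Zfp51 held 1 ETS and 1 CCAAT match, and Zfp143 held 2 GC boxes and 2 CCAAT matches.

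Genes named for their known function had mostly strong start sites in both cultures. Zfp568, a KRAB protein that silences a placental Igf2 transcript, stood at percentile 95.2 in the control list and 93.9 in the Taf4-inactivated one. The neurotrophin receptor partners Zfp110 and Zfp369 stood at 95.9 and 94.6 in control and at 95.9 and 96.4 in the Taf4-inactivated list. Zfp420, known to restrain p53, in which the KRAB pattern found no box, had 95.8 and 95.7. Zfp598, a ubiquitin ligase of collided ribosomes, had 91.2 and 87.5, Zfp346, which binds double-stranded RNA, 90.2 and 84.0, and the KRAB gene Zfp30 92.1 and 78.5. Zfp57, which keeps DNA methylation at imprinted genes, stood lower, at 77.2 and 62.4. Zfp366, known from dendritic cells, had 27.9 and 12.8, and Zfp296, known from pluripotent cells, had 12.8 and 0.404, among the weakest peaks that were called. Zfp36, also named for its function, had no start site peak in control and one at percentile 0.332 in the Taf4-inactivated list.

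The ranks of the 119 members differed little between the lists. Their median percentile stood at 90.8 (control) and 87.6 (Taf4-inactivated), and the median of the differences, Taf4-inactivated minus control, was −0.384 percentile points. Over the 14014 coding genes with a peak in both lists the medians were 88.2 and 82.6, with a median difference of −2.77 points, and over the 140 other numbered Zfp genes the median difference was −3.48. Of the members 53 ranked higher in the Taf4-inactivated list and 66 in control, so that 44.5% ranked higher in the Taf4-inactivated list, beside 34.2% of all coding genes and 24.3% of the other numbered Zfp genes. For 115 of the 119 (96.6%) the peaks of both lists overlapped each other, near the 94.3% of all coding genes. The sign of the members' median difference is not firm, since by width it was 5.68 points, among start site peaks alone 3.31 and without chromosome 7 1.56. Over all coding genes the median difference was 1.56 points by width and −1.9 among start site peaks alone.

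The ranks of 8 members differed by 25 percentile points or more, 5 being higher in the Taf4-inactivated list (4.20%) and 3 in control (2.52%). Such differences were no more frequent than over all coding genes, where 5.93% were that much higher in the Taf4-inactivated list and 9.08% in control. Zfp628, known from spermatids, went from percentile 12.9 (fold 1.84) to 73.8 (fold 2.92). Zfp541, a factor of meiotic germ cells, went from 51.1 (fold 2.04) to 98.0 (fold 4.67), with peaks of 502 and 499 bp at the same place. Zfp738 record 1 went from 38.1 to 78.1, Zfp759 from 45.9 to 81.2 and Zfp947 from 41.8 to 68.7. Zfp738 and Zfp759 stand in the chromosome 13 cluster, and Zfp947 stands in the large chromosome 17 cluster. In the other direction Zfp580 went from percentile 82.2 (fold 2.34) to 9.82 (fold 2.09), Zfp667 from 72.2 to 39.3 and Zfp710 from 70.6 to 42.3. Zfp628 and Zfp580, the members with the largest differences in the opposite directions, are the first and the last of the same cluster of 6 on chromosome 7. Zfp324 (−21.6 points) and Zfp27 (−21.5 points) came next on the control side. These values depend on the scale. Ranked among start site peaks alone, the difference was 73.6 points for Zfp541, 33.8 for Zfp628, 32.5 for Zfp759, 30.7 for Zfp738 record 1 and −39.7 for Zfp580, while Zfp947 (17.7), Zfp667 (−19.2) and Zfp710 (−16.3) no longer reached 25 points. Ranked by width among all peaks, it was 15.1 for Zfp628, 3.79 for Zfp541 and −3.42 for Zfp580, and it changed sign for Zfp667 (5.68) and Zfp710 (0.542).

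**Figure D2:**
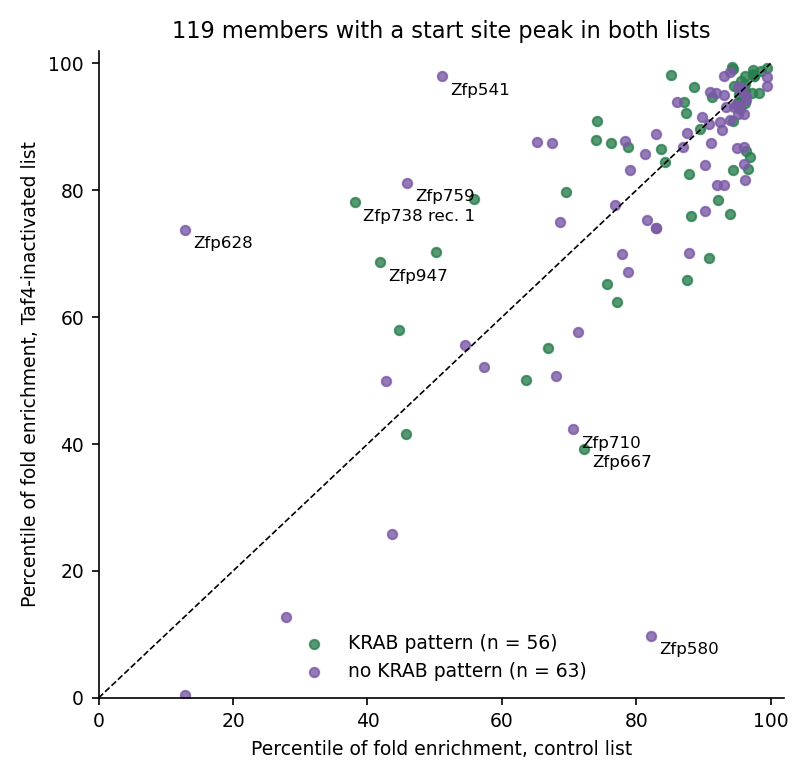
Percentile of the fold of the start site peak in the control list (x axis) against the Taf4-inactivated list (y axis), 1 point per member with a peak in both lists (n = 119), in green with a KRAB pattern (n = 56) and in violet without (n = 63). Most points crowd above percentile 75 near the dashed line of equal percentiles, with Zfp628 (12.9 and 73.8) and Zfp580 (82.2 and 9.82) farthest from it.

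The start site peaks of members were narrower than those of coding genes as a whole. Their median width was 737 bp (control) and 790 bp (Taf4-inactivated), where all coding genes with a start site peak had 1050 and 979 bp. Their median fold was slightly higher, at 2.56 against 2.44 in control and 3.48 against 3.20 in the Taf4-inactivated list. Of the 125 control peaks 62 (49.6%) were in the top 10% of their list by fold, against 41.8% over all coding genes, and of the 131 Taf4-inactivated peaks 53 (40.5%), against 32.1%. An annotated start was covered by 91.2% of the members' control peaks and 93.1% of their Taf4-inactivated peaks, near the 89.1% and 90.2% of all coding genes.

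Of the 6 members with a start site peak in control alone, Zfp626 had the highest fold, 2.39 (percentile 84.6), from a peak at chr7:28591272-28591493. That peak lay 730 bp before the 5′-most start, and the nearest peak of the Taf4-inactivated list was 1265 bp away from it. Zfp941 followed with a fold of 2.27 (77.9) from chr7:148007661-148008105, and Zfp952 with 2.20 (72.2) from chr17:33129987-33130408. Zfp169 had 2.07 (56.1), Zfp819 1.92 (26.5) and Zfp14 1.91 (24.8). None of the 6 reached the top 10% of the control list by fold.

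Of the 12 members of the Taf4-inactivated list alone, Zfp187 had the highest fold, 3.48 (percentile 86.8), from a peak at chr13:21545348-21545747 over its start, and the nearest control peak was 14316 bp away. Zfp457 had a fold of 2.96 (75.1) from chr13:67407117-67407532, with the nearest control peak 25563 bp away. Zfp551 had 2.94 (74.3) from chr7:13007253-13008179, and its nearest control peak was 55387 bp away. Zfp808 had 2.79 (69.0), Zfp455 2.39 (45.1), Zfp114 2.32 (38.3) and Zfp772 2.16 (17.5). Zfp36, the C3H1 protein that speeds decay of inflammatory messenger RNAs, had a fold of 1.84, at percentile 0.332 the weakest of them. Its nearest control peak was 1819 bp away, and for 11 of the 12 that distance was over 10 kb.

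The leading promoters of each kind, taken as the windows at the 5′-most annotated starts, are shown in the same way. For Zfp626 no 5′ untranslated part is annotated, so its window is the sequence around the coding start and may not be the promoter. Zfp626 is at chr7:28591973-28592272 (plus strand) with 0 bp inside its control peak, and Zfp941 at chr7:148008028-148008327 (minus strand) with 78 bp inside. Zfp187 is at chr13:21545550-21545849 (minus strand) with 198 bp inside its Taf4-inactivated peak, and Zfp457 at chr13:67407299-67407598 (minus strand) with 234 bp.
Zfp626: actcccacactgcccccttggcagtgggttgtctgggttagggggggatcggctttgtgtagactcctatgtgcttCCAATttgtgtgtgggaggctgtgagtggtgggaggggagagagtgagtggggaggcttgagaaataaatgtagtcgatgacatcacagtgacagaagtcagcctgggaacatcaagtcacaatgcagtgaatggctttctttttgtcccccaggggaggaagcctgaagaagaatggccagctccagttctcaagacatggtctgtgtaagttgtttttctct
Zfp941: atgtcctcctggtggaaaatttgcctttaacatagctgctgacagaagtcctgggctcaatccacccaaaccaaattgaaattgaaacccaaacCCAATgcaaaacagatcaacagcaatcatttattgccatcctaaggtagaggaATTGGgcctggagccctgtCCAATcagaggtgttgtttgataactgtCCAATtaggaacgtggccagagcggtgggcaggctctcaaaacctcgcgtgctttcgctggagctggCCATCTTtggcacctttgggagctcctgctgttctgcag
Zfp187: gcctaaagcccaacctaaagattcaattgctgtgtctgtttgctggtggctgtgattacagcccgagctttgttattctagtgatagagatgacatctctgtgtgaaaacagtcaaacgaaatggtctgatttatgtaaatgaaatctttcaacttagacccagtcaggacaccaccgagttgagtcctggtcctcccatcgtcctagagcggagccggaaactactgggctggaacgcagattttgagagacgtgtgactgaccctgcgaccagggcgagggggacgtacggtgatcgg
Zfp457: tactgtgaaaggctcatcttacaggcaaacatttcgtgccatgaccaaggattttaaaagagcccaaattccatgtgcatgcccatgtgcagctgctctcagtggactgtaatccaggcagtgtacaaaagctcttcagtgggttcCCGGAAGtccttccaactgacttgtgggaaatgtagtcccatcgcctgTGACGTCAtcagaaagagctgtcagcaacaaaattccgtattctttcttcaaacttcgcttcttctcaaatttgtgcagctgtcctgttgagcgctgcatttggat
Zfp626 held 2 CpG dinucleotides and 1 CCAAT match, and Zfp941 held 5 CpG, 4 CCAAT matches and 1 YY1 match. Zfp187 held 13 CpG and none of the motifs, and Zfp457 held 7 CpG, 1 ETS match and 1 CRE.

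The 12 members of the Taf4-inactivated list rest on 10 peaks, because 2 divergent pairs share a peak each. Zfp942 and Zfp943, whose 5′-most starts lie 88 bp apart on opposite strands of chromosome 17, share a peak at chr17:22099629-22099837 (fold 2.80, percentile 69.3). Zfp944 and Zfp758, 53 bp apart, share chr17:22498277-22498754 (fold 2.70, percentile 65.5). The 300 bp between and around the starts of these pairs, singled out after their values were seen, are near copies of each other (plus strand, GC box in capitals), at chr17:22099326-22099625 and chr17:22498244-22498543.
Zfp942 and Zfp943: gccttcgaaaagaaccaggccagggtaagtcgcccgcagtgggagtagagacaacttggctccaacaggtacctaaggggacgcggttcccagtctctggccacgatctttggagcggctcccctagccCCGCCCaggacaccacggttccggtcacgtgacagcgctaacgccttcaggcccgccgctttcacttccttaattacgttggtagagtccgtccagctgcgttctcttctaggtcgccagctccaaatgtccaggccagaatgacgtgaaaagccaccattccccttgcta
Zfp944 and Zfp758: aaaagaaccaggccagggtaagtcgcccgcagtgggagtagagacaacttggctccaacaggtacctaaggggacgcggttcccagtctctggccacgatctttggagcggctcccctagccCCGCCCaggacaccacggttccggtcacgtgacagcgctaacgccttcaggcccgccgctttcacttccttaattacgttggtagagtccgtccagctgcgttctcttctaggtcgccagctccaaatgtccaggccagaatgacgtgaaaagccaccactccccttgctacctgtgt
They were 95.1% identical over 307 aligned columns, and the differing columns include the offset of the windows. Of the 251 50-mers in the first window 232 also occurred in the second. The authors kept only reads that mapped to a single place, and within 1000 bp of the starts about 80% of 50-mers were unique to the genome (80.6% for Zfp942 and 80.1% for Zfp944). The first of the peaks begins just past the window shown, and the second runs beyond its right edge. How far the mapping rule shaped these peaks was not tested. The divergent pair Zfp646 and Zfp668 of chromosome 7 also shared a peak, at percentile 82.9 in the control list and 74.0 in the Taf4-inactivated one.

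**Figure D3:**
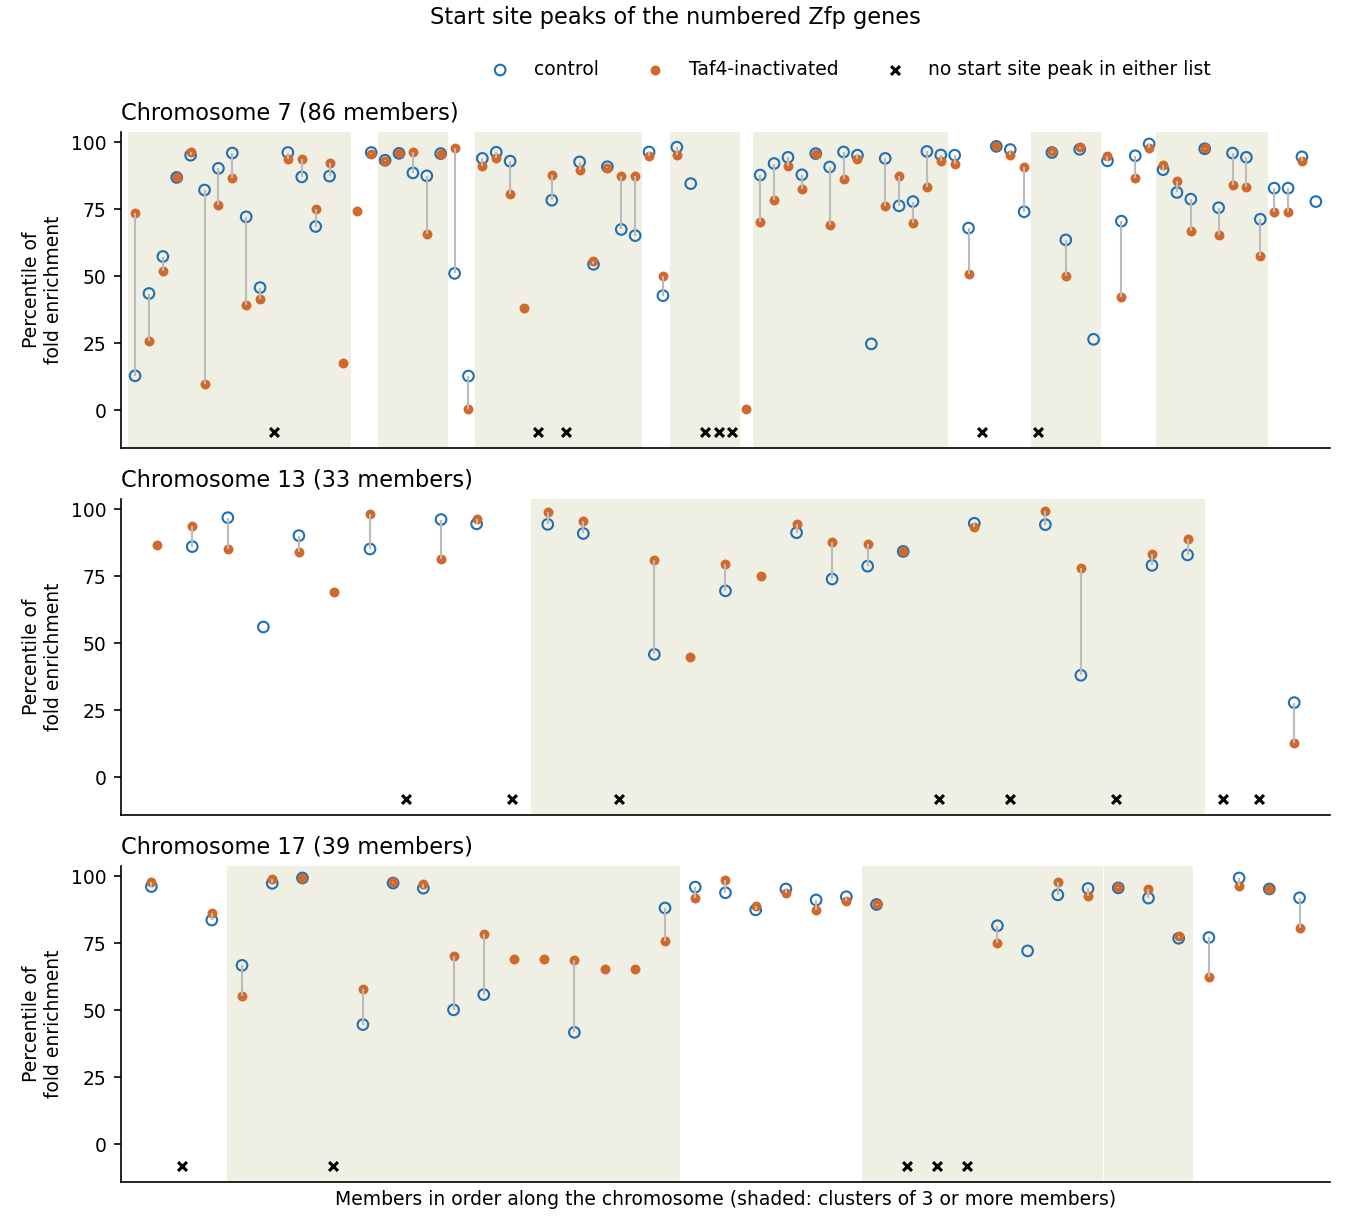
Percentile of the fold of the start site peak (y axis) for each member in its order along chromosomes 7, 13 and 17 (x axis, rank and not distance), with open circles for control, filled circles for the Taf4-inactivated list, a grey line joining them where both exist, and a cross under the axis zero where neither list has a peak. Shading marks the 13 clusters, and every cluster holds members with a peak in both lists.

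The 21 members with no start site peak shared features of their annotation and sequence. Their promoter windows, taken at the 5′-most annotated start, were poor in CpG dinucleotides. The observed over expected ratio had a median of 0.154 and a highest value of 0.44. The 119 members with a peak in both lists had a median of 0.635. Their median GC content was 42.3%, against 54.3%. All 21 lay under a ratio of 0.6. Of the 74 members at or above that ratio 0 lacked a start site peak altogether, and of the 84 below it 21 did. Over all coding genes 3.33% of those at or above the ratio and 49.7% of those below it had no start site peak, so the gap between the classes was wider in the genome as a whole. For 17 of the 21 (81.0%) the annotated gene began within 3 bp of its coding sequence, with no 5′ untranslated part, against 6 of the 119 (5.04%), and against 32.2% of all coding genes without and 3.62% of those with a start site peak in both lists. A single start was annotated for 16 of the 21 (76.2%), near the 73.7% of all coding genes without a start site peak. With a peak in both lists, it was 28.6% of the members and 29.4% of all coding genes. The nearest peak of either list lay within 10 kb of the annotated start for 14 of the 21, at a median of 7013 bp. The 21 included Zfp78, Zfp108, Zfp111, Zfp59, Zfp607, Zfp850 and Zfp936 on chromosome 7, Zfp87, Zfp459, Zfp640, Zfp825 and Zfp934 on chromosome 13, and Zfp53, Zfp97, Zfp799, Zfp811 and Zfp870 on chromosome 17. Of the 18 members with a peak in 1 list, 5 (27.8%) also had no 5′ untranslated part. Where that part is missing, the window lies around the coding start and may not be the promoter. Its CpG ratio, GC content and unique 50-mers have the same limit. Whether a start lies elsewhere in these genes was not tested.

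**Figure D4:**
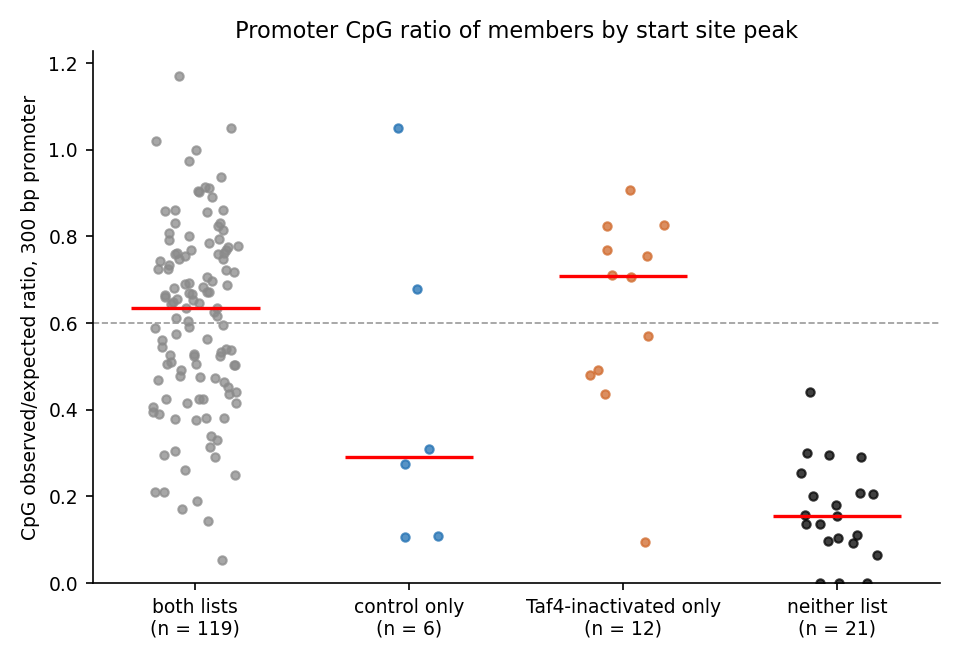
CpG observed over expected ratio of the 300 bp promoter (y axis) for each member, by whether its start site had a peak in both lists (n = 119), in control alone (n = 6), in the Taf4-inactivated list alone (n = 12) or in neither (n = 21), with the median as a red bar. All points of the last group sit under the dashed line at 0.6, at a median of 0.154, while the points of the first spread around 0.635. For 17 of the 21 genes in neither list no 5′ untranslated part is annotated, so their windows may not be promoters.

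Copied sequence around the start was the exception. The median share of unique 50-mers within 1000 bp of the start was 86.1% in the 21 members without a peak and 100% in those with a peak in both lists. Under 50% of the 50-mers were unique for 4 members, of which 3 had no peak and Zfp808 (40.5% unique) had one in the Taf4-inactivated list alone. Among the 154 other members 119 had a peak in both lists, 6 in control alone, 11 in the Taf4-inactivated list alone and 18 in neither.

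The members fell into 13 clusters, runs of 3 or more members with starts at most 250 kb apart, which held 110 of the 158 genes over 5.15 Mb, and 48 genes stood outside them. Clustered and isolated genes had start site peaks at like shares, 83 of 110 and 36 of 48 in both lists, 4 and 2 in control alone, 8 and 4 in the Taf4-inactivated list alone. The largest, on chromosome 13 from Zfp712 to Zfp273, held 19 members, of which 13 had a peak in both lists, 2 in the Taf4-inactivated list alone and 4 in neither. The chromosome 17 cluster from Zfp677 to Zfp946 held 15, of which 10 had a peak in both lists and 4, the divergent pairs, in the Taf4-inactivated list alone. On chromosome 7 the cluster from Zfp84 to Zfp146 held 14, of which 13 had a peak in both lists and Zfp14 in control alone, and the cluster from Zfp180 to Zfp575 held 12, with 9 in both. All members had a peak in both lists in 4 clusters, from Zfp628 to Zfp580 (6 genes), from Zfp329 to Zfp446 (5), from Zfp553 to Zfp629 (8) and from Zfp81 to Zfp414 (3). The cluster from Zfp60 to Zfp850 on chromosome 7 stood apart, with 1 of 5 in both lists, 3 in neither and Zfp626 in control alone. Its median CpG ratio was 0.112 and its median share of unique 50-mers 75.2%, the lowest of the 13 clusters on either measure. For its members Zfp626, Zfp59 and Zfp607 no 5′ untranslated part is annotated, so these values may not be of promoters.

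A KRAB box was found by its pattern in 81 of the 158 genes. The pattern misses diverged boxes, and it found none in the 12 genes from Zfp180 to Zfp575. Of the 81 genes 56 had a peak in both lists, 4 in control alone, 7 in the Taf4-inactivated list alone and 14 in neither. Of the 77 without the pattern 63 had one in both lists, 2 and 5 in 1 list and 7 in neither. Among those with a peak in both lists, 29 KRAB genes ranked higher in the Taf4-inactivated list and 27 in control (median difference 0.168 points), and 24 and 39 of the others (−1.56 points). The median member had 11 C2H2 fingers, with quartiles of 8 and 15.

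Most genes through which KRAB proteins act had start site peaks in both cultures. The 22 listed cofactor genes include Trim28, the heterochromatin proteins Cbx1, Cbx3 and Cbx5, histone deacetylases and DNA methyltransferases. Of these 21 carried start site peaks in both lists. The share over all coding genes was 62.7%, and over those with a promoter CpG ratio of at least 0.6 it was 93.2%. Weak peaks were among them, with Chd3 at percentiles 27.5 (control) and 45.6 (Taf4-inactivated) and Dnmt3a at 30.1 and 46.4. Setdb1, the histone H3 lysine methyltransferase brought in by Trim28, had one in the Taf4-inactivated list alone, with a fold of 3.39, at a start where 62.6% of 50-mers were unique. The median percentile of the list was 93.7 in the control list and 90.1 in the Taf4-inactivated one, with a median difference of −1.88 points beside −2.77 over all coding genes, and 8 genes ranked higher in the Taf4-inactivated list and 13 in control. Trim28 itself had a fold of 2.59 in control, at percentile 90.5, and 3.22 in the Taf4-inactivated list.

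The promoters of the members differed from those of coding genes in some motifs. The motif CCGGAAG, bound by ETS factors, was in 31 of 158 promoters (19.6%, CI 13.7 to 26.7), against 10.8% of all coding genes and 21.0% of the other numbered Zfp genes. The NRF1 motif GCGCATGC was in 14 (8.86%, CI 4.93 to 14.4), against 3.30% and 4.30%. The GC box GGGCGG was less frequent, in 51 (32.3%, CI 25.1 to 40.2), against 43.4% and 45.2%. The CCAAT box, read by NF-Y, was in 41.1% against 37.9%, the TATA box TATAAA in 9.49% against 13.4%, the YY1 motif AAGATGG in 6.33% against 6.73%, the CRE TGACGTCA in 3.80% against 2.32% and the ZNF143 motif ACTACAA in 5.06% against 3.65% of all coding genes. Matches on both strands counted, also where they overlapped another motif. Of the ETS matches 28 were in the 119 promoters with a peak in both lists (23.5%, CI 16.2 to 32.2) and 3 in the 39 others (7.69%, CI 1.62 to 20.9). This was not particular to ETS, as the GC box had 37.8% and 15.4% and NRF1 10.9% and 2.56%. The YY1 motif (5.04% and 10.3%) and the TATA box (8.4% and 12.8%) went the other way. The split was not made over all coding genes. Most of the 39 have no annotated 5′ untranslated part, so their windows may not be promoters.

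Distal gene body peaks, which overlapped a member and lay over 1000 bp from every annotated start, were found in a smaller share of the members than of all coding genes. In control 46 of the 158 (29.1%) held at least 1, against 44.2% of all coding genes, and in the Taf4-inactivated list 30 (19.0%), against 39.2%. These shares were not adjusted for gene length. The 158 members covered 3.05 Mb of gene body and the 22367 coding genes 1020 Mb, so the average member was shorter and had less room for such peaks. The 46 members held 110 such peaks in control, of which 32 (29.1%, CI 20.8 to 38.5) overlapped a peak of the other list, and the 30 members held 67 in the Taf4-inactivated list, of which 32 (47.8%, CI 35.4 to 60.3) did. Over all coding genes these shares were 37.2% and 50.6%. Without Zfp536, the members had 24 of 68 (35.3%) shared in control and 24 of 46 (52.2%) in the Taf4-inactivated list, near all coding genes. Members had 36.1 distal peaks per Mb of gene body in the control list and 22.0 in the Taf4-inactivated one, against 33.9 and 25.2 for all coding genes. Without Zfp536, a single long gene, the members had 26.2 and 17.7, below all coding genes in both lists, though no long gene was left out of the latter. Clustered members had 22.4 per Mb in the control list and 10.6 in the Taf4-inactivated one, and isolated members 53.2 and 36.2, or 33.3 and 31.1 without Zfp536.

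Few genes held most of these peaks. Zfp536, a brain-enriched repressor of neuronal differentiation and at 451079 bp the longest of the genes named, held 42 in the control list and 21 in the Taf4-inactivated one, of which 8 in each list were shared. It is an isolated member, and thus carries 42 of the 72 distal control peaks of that set and leaves 30. Its best start site peaks lay at different starts, in control at chr7:38555139-38555764 and in the Taf4-inactivated list at the inner start at chr7:38352875-38354418. Zfp710 held 9 and 6, with 4 shared, and Zfp366 held 4 and 3, with 1 shared. Zfp13 held 2 in the control list and 4 in the Taf4-inactivated one, with 2 shared, and Zfp143 held 1 and 4, with 1 shared.

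Most distal peaks of the members were intronic, 70 of 110 in control and 46 of 67 in the Taf4-inactivated list. Zfp536 held 42 of the 110 and 21 of the 67, nearly all in introns. Without Zfp536, most control peaks lay over coding exons, while most Taf4-inactivated ones stayed intronic. This split was not made over all coding genes. The longest coding exon, which holds the finger array in most of these genes, is far longer in the members, with a median of 1440 bp against 337 bp in all coding genes. A distal peak overlapped it in 26 members in the control list (16.5%) and 13 in the Taf4-inactivated one (8.23%), against 10.6% and 5.98% of all coding genes. Counting any peak, start site peaks included, the members lay lower, with 35 of 158 (22.2%) in control against 25.9%, and 19 of 158 in the Taf4-inactivated list against 18.6%. Per Mb of these exons, 111 genes of the members held a distal peak in control against 187, and 55.4 against 105 in the Taf4-inactivated list. Each gene counts once whatever the length of its exon, so this value falls as exons lengthen. It therefore does not compare how dense peaks are over the exons of the members and of all coding genes. Of the distal peaks over this exon, 11 in either list were shared with the other, so that of 26 control and 13 Taf4-inactivated peaks most of the latter had a counterpart.

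**Figure D5:**
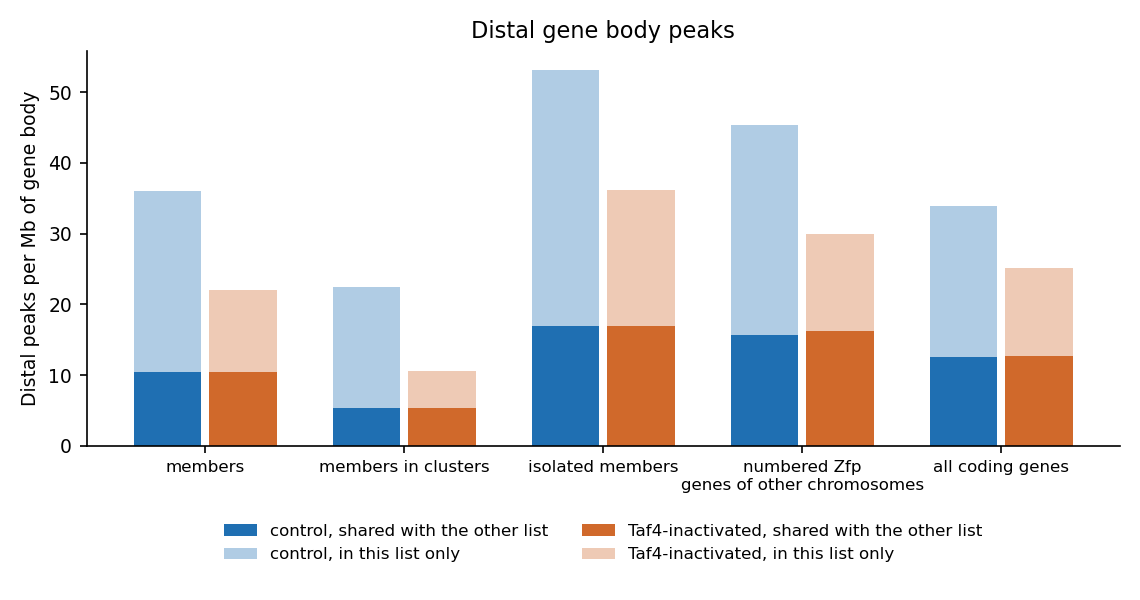
Distal gene body peaks per Mb of gene body (y axis) for the members, for clustered and isolated members, for the other numbered Zfp genes and for all coding genes, with control in blue, Taf4-inactivated in orange, and the part shared with the other list in full colour. Clustered members have the lowest bars (22.4 and 10.6 per Mb) and isolated members the highest (53.2 and 36.2), which without Zfp536 would stand at 33.3 and 31.1, and the shared part is like in height between the lists.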

How the data were processed

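The peak lists of 2 ATAC-seq libraries of ileum enteroids, 1 control and 1 Taf4-inactivated, were grouped by the genotype in the sample labels. The authors transposed 20000 cells per library, aligned reads to mm9 with Bowtie 1.0.0, kept those with a single best place, and ran a broad peak call per library with MACS2 2.1.1 without a model, with a shift of −100 bp and an extension of 200 bp. Versions follow the paper's methods and the submitters' processing notes, which also name bcl2fastq 2.17.1.14. Read length and the treatment of duplicate and mitochondrial reads are not given in the sources used here. The authors' deposited score equals the −log10 q times 10 without decimals. The fold they deposited is taken against each library's own background, and the deposited −log10 p and −log10 q are averages over each peak.

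Positions were written 1-based. Gene records, starts and coding sequences came from the GENCODE vM1 annotation of the same build (NCBIM37), and promoters from its genome. A start site peak lay within 1000 bp of any annotated start, and the one with the highest fold stood for the gene. A distal peak overlapped the gene by at least 1 bp and lay over 1000 bp from every start of any gene. Shared peaks had at least 1 bp in common. Unique 50-mers were counted within 1000 bp of the 5′-most start. C2H2 fingers and KRAB boxes were found by pattern in translated coding sequences of the annotation, in place of the RefSeq proteins first planned. Relative depth was solved from fold and p over the narrowest 10% of peaks, as the 5th percentile of the background level. Python 3.11.15, numpy 2.4.6, pandas 2.3.3, scipy 1.17.1 and matplotlib 3.10.9 were used, and each step was tested on simulated data. With 1 library per genotype no test was run.

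Genes named were up to 8 of highest fold in each list alone, the 5 of highest mean percentile, the 5 of largest rank difference in each direction, the 5 with most distal peaks, and 12 of known function. Members, lists and rules were chosen with earlier results of these data known. The remaining genes named, the CpG ratio split, the untranslated parts, the distances to the nearest peak and the divergent pairs were chosen after values were seen.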

Additional observations from a re-analysis of the deposited data

How the results depend on the processing

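Each genotype had 1 library, so none could be left out. No paired analysis was possible because the labels give no replicate numbers and each group has 1 sample. Percentile medians were called moved past 5 points and counts past 1.5 times. Counts were not scaled to the number of members, so a setting that drops members can move a count by that alone. Of 169 values that 14 results took under alternatives 123 kept to that range and 46 moved, and of 108 values of 27 named genes 56 kept to it, 45 moved and 7 changed sign. The cause was not tested beyond what each setting removes. The alternatives with a peak covering an annotated start, with overlapping peaks of both lists and without Zfp536 were chosen after seeing the data.

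Members with a start site peak numbered 6 fewer in control than in the Taf4-inactivated list. That difference was −12 with a −log10 q of at least 2, −33 with at least 5, −13 with the 40000 peaks of highest −log10 p, −2 without members near a start of another gene, and −3 without chromosome 13 or chromosome 17. At a −log10 q of at least 5, 65 members had a peak in both lists, 0 in control alone, 33 in the Taf4-inactivated list alone and 60 in neither. Without chromosome 7, which leaves 72 members, 49 were in both, 2 in control alone and 13 in neither. Without chromosome 13, which leaves 125 members, also 13 were in neither. These counts are of fewer members and do not by themselves show that the shares moved.

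Distal peaks were weak and moved most. Members with one, their peaks and the shared peaks were 24, 45 and 13 in control and 17, 29 and 13 in the Taf4-inactivated list at a −log10 q of at least 2, but 1, 1 and 1, and 6, 6 and 1, at 5 or more. With the 40000 highest peaks they were 20, 36 and 8, and 11, 20 and 8. Without chromosome 7, which leaves 72 members, they were 10, 16 and 8, and 12, 18 and 8, where the Taf4-inactivated list held more. With overlap of 50% of both peaks 15 were shared in either list. Without Zfp536, the members held 68 distal peaks in control.

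Ranked by width, the median percentiles were 61.8 (control) and 70.2 (Taf4-inactivated), and the median difference 5.68 points. All coding genes had 80.2 and 80.3 by width, with a median difference of 1.56 points. Among start site peaks alone the medians were 60.5 and 62.0. By width, differences changed sign for Zfp27 (6.68 points), Zfp296 (29.0), Zfp30 (7.11), Zfp324 (6.12), Zfp536 (41.3), Zfp667 (5.68) and Zfp710 (0.542). At its lower depth, a weak peak missing from the Taf4-inactivated list does not show closed chromatin.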

Other observations

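The zinc finger clusters varied in how dense they were in peaks. Pooled, the 13 clusters, 5.15 Mb in all, held 60.4 peaks per Mb in the control list and 50.7 in the Taf4-inactivated one, against 34.1 and 26.8 over all assembled chromosomes. The spans are defined by runs of genes and thus hold many start sites, and these values were not adjusted for gene density. The cluster from Zfp553 to Zfp629 held 21 coding genes in 0.383 Mb, and that from Zfp677 to Zfp946 held 21 in 1.07 Mb. The pooled value did not hold for the longest of them. The chromosome 17 cluster from Zfp677 to Zfp946 lay below the genome, with 26.1 per Mb (control) and 21.4 (Taf4-inactivated), and the chromosome 13 cluster from Zfp712 to Zfp273 held 33.0 and 38.1. Distal peaks, which leave start sites out, lay closer to the genome, at 30.1 and 22.7 per Mb in the clusters against 26.7 and 20.3. Of the distal peaks in the clusters 43.2% in the control list and 59.8% in the Taf4-inactivated one were shared, against 38.5% and 51.2%. The cluster from Zfp712 to Zfp273 on chromosome 13 had the fewest distal peaks, 6.34 per Mb (control) and 7.61 (Taf4-inactivated), and the clusters from Zfp628 to Zfp580 (57.8 and 50.5) and from Zfp553 to Zfp629 (57.5 and 52.3) on chromosome 7 the most.

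Members with CpG-rich and CpG-poor promoters differed in rank and width. The 65 members with a ratio of at least 0.6 and a peak in both lists had median percentiles of 93.0 (control) and 90.5 (Taf4-inactivated), and median widths of 799 and 871 bp. The 54 members under that ratio had 84.7 and 85.3, with widths of 648 and 650 bp. Over all coding genes the CpG-rich class had medians of 91.3 and 86.4 and the CpG-poor class 78.4 and 70.4. Of the 54 CpG-poor members 27 ranked higher in the Taf4-inactivated list, against 1690 of 4596 CpG-poor coding genes.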
